A study of Rattus norvegicus with 9 samples.

Results

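The genes described here are 6 that serve the migration and adhesion of dendritic cells (DCs): Ccr7, Icam1, Marcks, Cxcl16, Adam8 and Itgal. They were taken by name from the 32545 genes of a raw count table, through the Ensembl ID that the study's published list of genes called between total lipids and the vehicle control pairs with each symbol. All 6 were found and all 6 passed the filter on low counts, which left 12602 genes for testing. Because that published list holds only genes the study had called, the comparison of total lipids with the vehicle control is not independent of how the 6 were found.

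Bone marrow-derived dendritic cells (BMDCs) had been grown from wild-type Sprague-Dawley rats aged 8 to 12 weeks, for 7 days with rat GM-CSF at 20 ng/mL and human FLT3-L at 200 ng/mL, and the nonadherent cells were stimulated for 6 h. The groups, of 3 libraries each, received total lipids (TLs) of the gut symbiont Lactobacillus johnsonii N6.2 at 600 ng/mL, synthetic alpha-galactosylceramide (α-GalCer), a glycolipid that CD1d presents to iNKT cells, at 100 ng/mL, or the vehicle control. TLs are described as suspended in PBS, whereas α-GalCer and the vehicle control contained DMSO and PBS. Whether DMSO was matched in the TL cultures is not stated, and if it was not, an effect of TLs and a difference in DMSO cannot be told apart. The study describes 3 independent assays, and whether each library came from a separate animal is not stated, so that p-values measure the spread between these cultures. Libraries held 15190820 to 20591105 counts, and one of them, vehicle replicate 2, stood apart from the other vehicle libraries on the second principal component (−32.6 against 14.9 and 15.6, 9.72% of the variance). CPM, the unit of level used here, is a gene's count per 1000000 counts of its library after TMM normalization. Levels are compared between groups but not between genes, because gene length was not available for these IDs.

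DCs that have taken up antigen leave tissue and travel through lymphatic vessels to the draining lymph node. CCR7 is the receptor that guides them there, along the chemokines CCL19 and CCL21. CXCL16 is a transmembrane chemokine that binds CXCR6 on T and NKT cells and can be shed from the cell surface. ICAM-1 and LFA-1, whose alpha chain is encoded by Itgal, bind each other and hold leukocytes to other cells. ADAM8 is a membrane metalloprotease of leukocytes that cleaves surface proteins, and MARCKS is a substrate of protein kinase C that links the plasma membrane to actin filaments.

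All 6 transcripts rose with TLs whether the vehicle or the α-GalCer libraries were the reference, and none of the 6 was called for α-GalCer against its vehicle. The rise against the vehicle control ran from 1.29-fold for Adam8 to 2.95-fold for Icam1. Genes were called by edgeR's quasi-likelihood test at the study's thresholds, an adjusted p under 0.01 over all genes tested and an absolute log2 fold change over 0.3. At these thresholds 9.77% of all genes tested were called higher with TLs than with the vehicle control and 9.67% lower, 19.4% in all. Against α-GalCer TLs gave 9.85% higher and 10.5% lower, 20.3% in all, and α-GalCer against its vehicle gave 0%. Of the 1839 tested genes with a symbol, 76.6% were called either way against the vehicle control, and in the comparison with α-GalCer 75%, so the 6 calls in either comparison say nothing about the 6 genes as a set. For each of the 6 genes the lowest TL level exceeded the highest level among the other 6 libraries. Taking 1 reference group at a time, such a separation held in 22.2% of all genes tested for the vehicle control and in 24.8% for α-GalCer. The share of genes separated from both groups at once was not counted. Because the 6 were found through a list of called genes, these shares are no measure of how unusual their separation is. The 6 genes together took 0.0906% to 0.102% of all counts in the 6 vehicle and α-GalCer libraries and 0.185% to 0.186% in the 3 TL libraries.

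**Figure D1:**
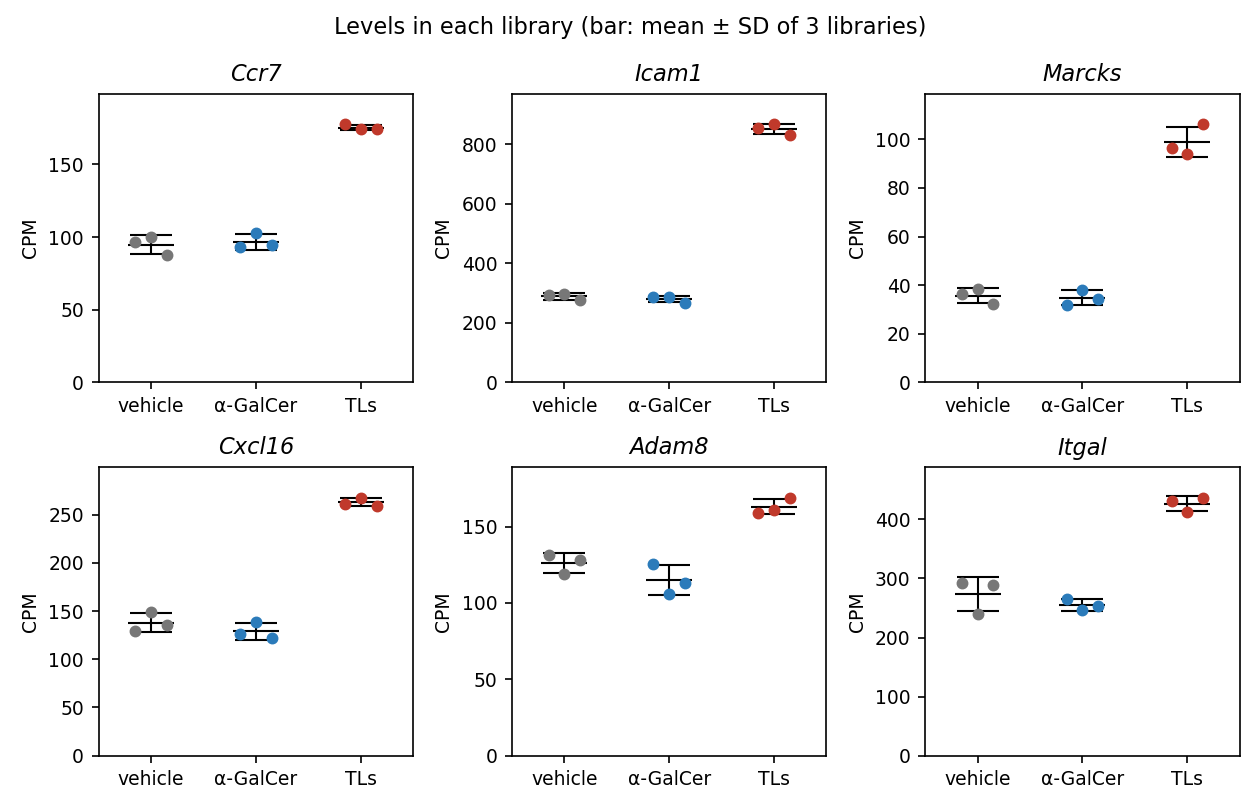
Level of each of the 6 genes in CPM (vertical axes, from 0) in the vehicle, α-GalCer and TL libraries, with 1 point per library and bars for the mean ± SD of 3 libraries. In every panel the 3 TL points sit above all 6 others, while the vehicle and α-GalCer points overlap.

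Among the receptors of chemokines, Ccr7 (ENSRNOG00000010665) was measured at 96.8, 99.7 and 87.4 CPM in vehicle replicates 1 to 3. With α-GalCer its levels were 92.9, 103 and 94.3 CPM, and with TLs 178, 174 and 174 CPM. The TL libraries were thus high and nearly equal, and the other groups overlapped. The group means were 94.6 ± 6.44, 96.8 ± 5.53 and 175 ± 1.87 CPM (SD, n = 3 libraries each). Ccr7 was 1.85-fold higher with TLs than with the vehicle control, a log2 fold change of 0.89 (standard error, SE = 0.065, 95% interval 0.75 to 1.03, edgeR adjusted p = 1.98e-06). Against α-GalCer the log2 fold change was 0.86 (SE = 0.065, edgeR adjusted p = 2.54e-06). In the table of the reference annotation (GRCr8) a long noncoding RNA overlaps Ccr7, and the counting setting for strand is not stated, so that reads from either strand could have been counted together.

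The chemokine gene of the set, Cxcl16 (ENSRNOG00000026647), was at 129, 149 and 135 CPM in the vehicle libraries. After α-GalCer it was at 126, 138 and 122 CPM, and after TLs at 261, 267 and 259 CPM. Vehicle and α-GalCer libraries were interleaved, and the lowest TL library held 1.75 times the level of the highest vehicle library. Means were 138 ± 9.78, 129 ± 8.52 and 263 ± 4.16 CPM in the same order. The log2 fold change with TLs was 0.93 against the vehicle control (SE = 0.067, 95% interval 0.78 to 1.08, edgeR adjusted p = 1.81e-06) and 1.03 against α-GalCer (SE = 0.067, edgeR adjusted p = 7.75e-07). Zmynd15, a neighbouring gene that overlaps Cxcl16 in the reference table, had 872, 896 and 1548 counts over the vehicle, α-GalCer and TL libraries, where Cxcl16 had 7198, 6954 and 12651. The log2 fold change of Zmynd15 against the vehicle control was 0.95 (SE = 0.088, edgeR adjusted p = 1.27e-05), close to that of Cxcl16. How far reads of one were counted for the other was not tested.

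Of the adhesion pair, Icam1 (ENSRNOG00000020679) showed the largest rise of the 6 genes. Its levels were 293, 297 and 275 CPM in the vehicle libraries, 286, 285 and 266 CPM after α-GalCer, and 853, 866 and 831 CPM after TLs. No TL library came near the others: the lowest held 2.80 times the level of the highest vehicle library. The means were 288 ± 11.6, 279 ± 11.2 and 850.1 ± 17.8 CPM. With TLs the log2 fold change was 1.56 against the vehicle control (SE = 0.054, 95% interval 1.44 to 1.68, edgeR adjusted p = 6.96e-09) and 1.61 against α-GalCer (SE = 0.054, edgeR adjusted p = 5.31e-09). Of the 12602 genes tested, 208 had a higher log2 fold change against the vehicle control.

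Itgal (ENSRNOG00000017980), the alpha chain of LFA-1, rose less than the gene of its ligand. It was at 292, 240.1 and 289 CPM in the vehicle libraries, 266, 247 and 253 CPM after α-GalCer, and 431, 413 and 436 CPM after TLs. Vehicle replicate 2 was the lowest of all 9 libraries, and its vehicle group had the widest spread in CPM relative to the mean (274 ± 29.2 CPM, where α-GalCer gave 255 ± 9.64 CPM and TLs gave 427 ± 12.3 CPM). Itgal was 1.56-fold higher with TLs than with the vehicle control, a log2 fold change of 0.64 (SE = 0.075, 95% interval 0.48 to 0.81, edgeR adjusted p = 7.22e-05). Without vehicle replicate 2 the value was 0.55 and the call held. Against α-GalCer the log2 fold change was 0.74 (SE = 0.075, edgeR adjusted p = 2.29e-05).

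Adam8 (ENSRNOG00000017897), the protease of the set, had the smallest rise. Its levels were 131, 119 and 128 CPM in the vehicle libraries, 125, 106 and 113 CPM after α-GalCer, and 159, 161 and 169 CPM after TLs. The TL libraries still did not overlap the others, and the lowest lay 1.21 times above the highest vehicle library. Means were 126 ± 6.37, 115 ± 9.88 and 163 ± 5.06 CPM. The log2 fold change was 0.37 against the vehicle control (SE = 0.070, edgeR adjusted p = 0.00204), and its 95% interval of 0.22 to 0.53 reached below the threshold of 0.3. Leaving out TL replicate 3 ended this call (0.35, edgeR adjusted p = 0.0124, over 17 alternatives 1.72e-05 to 0.0124). Against α-GalCer the log2 fold change was 0.51 (SE = 0.070, edgeR adjusted p = 0.000242). A long noncoding RNA overlaps Adam8 in the reference table.

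Marcks (ENSRNOG00000000579), the membrane and actin linker, had the fewest counts of the set, 550 to 701 in the vehicle and α-GalCer libraries and 1374 to 1866 with TLs. In the vehicle libraries its levels were 36.1, 38.5 and 32.3 CPM. They were 32.0, 38.1 and 34.4 CPM after α-GalCer, and 96.5, 94.2 and 106 CPM after TLs. The lowest TL library held 2.44 times the level of the highest of the other 6 libraries, vehicle replicate 2. The means were 35.7 ± 3.13, 34.8 ± 3.12 and 99.0 ± 6.36 CPM. Marcks was 2.77-fold higher with TLs than with the vehicle control, a log2 fold change of 1.47 (SE = 0.092, 95% interval 1.27 to 1.67, edgeR adjusted p = 5.54e-07). Against α-GalCer the log2 fold change was 1.51 (SE = 0.092, edgeR adjusted p = 4.34e-07).

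Ordered by their log2 fold change against the vehicle control, the genes were Icam1, Marcks, Cxcl16, Ccr7, Itgal and Adam8. The same order was found against α-GalCer, a comparison that uses the same TL libraries. The 95% intervals of neighbours in this order overlapped, except those of Marcks (from 1.27) and Cxcl16 (to 1.08), and differences between genes were not tested. The median log2 fold change of the 6 genes was 0.91 in the vehicle comparison (−0.021 over all genes tested) and 0.94 in the α-GalCer comparison (−0.019). The median of the absolute log2 fold change over all genes tested was 0.24 in either comparison. Because the 6 were found through a list of called genes, these medians say nothing about them as a set. With upper quartile normalization the calls of all 6 genes held, while 1002 genes were higher and 1614 lower with TLs than with the vehicle control, where TMM gave 1231 and 1219. Against α-GalCer it gave 1000 higher and 1742 lower, where TMM gave 1241 and 1321. The log2 fold change of Adam8 with TLs against the vehicle control was 0.30 under that normalization, at the threshold.

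**Figure D2:**
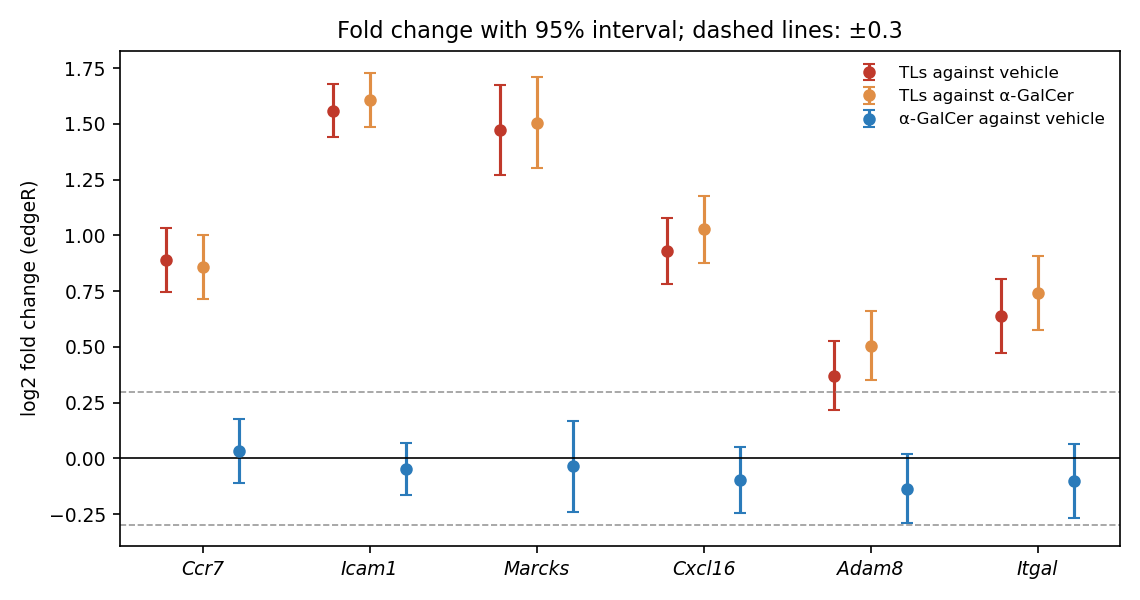
Log2 fold change of each gene (vertical axis, points) with its 95% interval (bars) for TLs against the vehicle control, TLs against α-GalCer and α-GalCer against the vehicle control, with dashed lines at the threshold of 0.3 in both directions. All intervals of both TL comparisons lie above 0, from 0.22 for Adam8 upward, and all intervals of α-GalCer against its vehicle include 0.

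For α-GalCer against its vehicle 0 of the 6 genes were called by edgeR, by DESeq2 or by limma-voom, where 0% of all genes were called in edgeR. Among the 6, 0 had an unadjusted p under 0.05, a level that 370 of all genes tested (2.94%) reached. Libraries of these groups overlapped in all 6 genes, and in all but 6.74% of the genes tested. The log2 fold change was 0.032 for Ccr7 (95% interval −0.11 to 0.18) and −0.034 for Marcks (−0.24 to 0.17). It was −0.047 for Icam1 (−0.16 to 0.070) and −0.10 for Itgal (−0.27 to 0.063). Those of Cxcl16 and Adam8 were −0.097 (−0.25 to 0.052) and −0.14 (−0.29 to 0.019). A difference of more than 0.3 on the log2 scale thus lay outside the interval of each gene. The smallest unadjusted p of the 6 was 0.0803 in edgeR, for Adam8, with an adjusted p of 0.99994.

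Promoter windows of 300 bases, 250 before and 50 after the annotated start, were taken from RefSeq on GRCr8 for 4 of the genes, Icam1, Marcks, Cxcl16 and Adam8. Those of the 2 genes with the largest rise and of the gene with the smallest are shown, so that the letters can be set beside the size of the rise. Capitals mark 2 motifs in the form of NF-κB sites, searched on both strands: a loose κB pattern, GGG and CC with 5 bases of any kind between them, and GGAAATTCC. The second is the core of the site known from the human ICAM1 promoter and was chosen after the sequences had been seen.
Icam1, chr8:27829595-27829894, plus strand: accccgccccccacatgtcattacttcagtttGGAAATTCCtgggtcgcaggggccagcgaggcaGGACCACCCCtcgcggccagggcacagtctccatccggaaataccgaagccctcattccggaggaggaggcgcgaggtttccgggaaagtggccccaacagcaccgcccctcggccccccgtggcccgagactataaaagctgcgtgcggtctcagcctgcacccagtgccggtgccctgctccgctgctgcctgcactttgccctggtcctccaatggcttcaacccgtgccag
Marcks, chr20:42245833-42246132, minus strand: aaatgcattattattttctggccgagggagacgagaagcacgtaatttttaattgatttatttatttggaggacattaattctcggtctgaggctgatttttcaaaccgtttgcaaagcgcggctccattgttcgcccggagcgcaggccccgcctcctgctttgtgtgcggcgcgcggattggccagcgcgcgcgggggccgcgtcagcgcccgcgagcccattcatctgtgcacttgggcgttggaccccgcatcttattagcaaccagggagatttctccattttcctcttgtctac
Adam8, chr1:204218273-204218572, minus strand: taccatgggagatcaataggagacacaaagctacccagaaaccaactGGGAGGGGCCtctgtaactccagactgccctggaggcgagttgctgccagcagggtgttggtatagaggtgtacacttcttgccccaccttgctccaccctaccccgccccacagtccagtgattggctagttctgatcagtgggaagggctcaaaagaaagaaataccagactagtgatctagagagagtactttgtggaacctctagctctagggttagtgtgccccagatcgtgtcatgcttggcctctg
GGAAATTCC was found at bases 33 to 41 of the Icam1 window and in no other of the 4 windows. Of all 33469 promoter windows of this length, 0.332% held it. The loose pattern, which 47.3% of all windows held, was found in the windows of Icam1 and Adam8, and not in those of Marcks and Cxcl16. The AP-1 motif TGANTCA (7.33% of all windows) and the IRF motif, GAAA repeated after 2 bases of any kind (3.92%), were in none of the 4. GAGGAA, the core bound by PU.1, a factor of myeloid cells, was in 2 of them, Marcks and Cxcl16, beside 27.6% of all windows. These matches are descriptions of the letters, not of bound sites.

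Within a group the 6 genes did not all deviate in the same direction from replicate to replicate. Over all 9 libraries the 15 pairwise Pearson correlations of log2 CPM ran from 0.87 to 0.996, since every gene was high in the 3 TL libraries. After each library's deviation from its group mean was taken, Ccr7, Icam1, Marcks and Cxcl16 correlated with one another at 0.28 to 0.85, and Adam8 with Itgal at 0.73. Between these sets the correlations were −0.78 to −0.12. In vehicle replicate 2 and in α-GalCer replicate 2, Ccr7, Marcks and Cxcl16 were at their highest within the group and Adam8 and Itgal at their lowest. Deviations were small beside the rise with TLs, at most 0.18 on the log2 scale, that of Itgal in vehicle replicate 2. These correlations share libraries and their scaling and are given as a description. The sets of genes compared were not fixed beforehand. Vehicle replicate 2 also stood apart from the other vehicle libraries over all genes, on the second principal component.

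**Figure D3:**
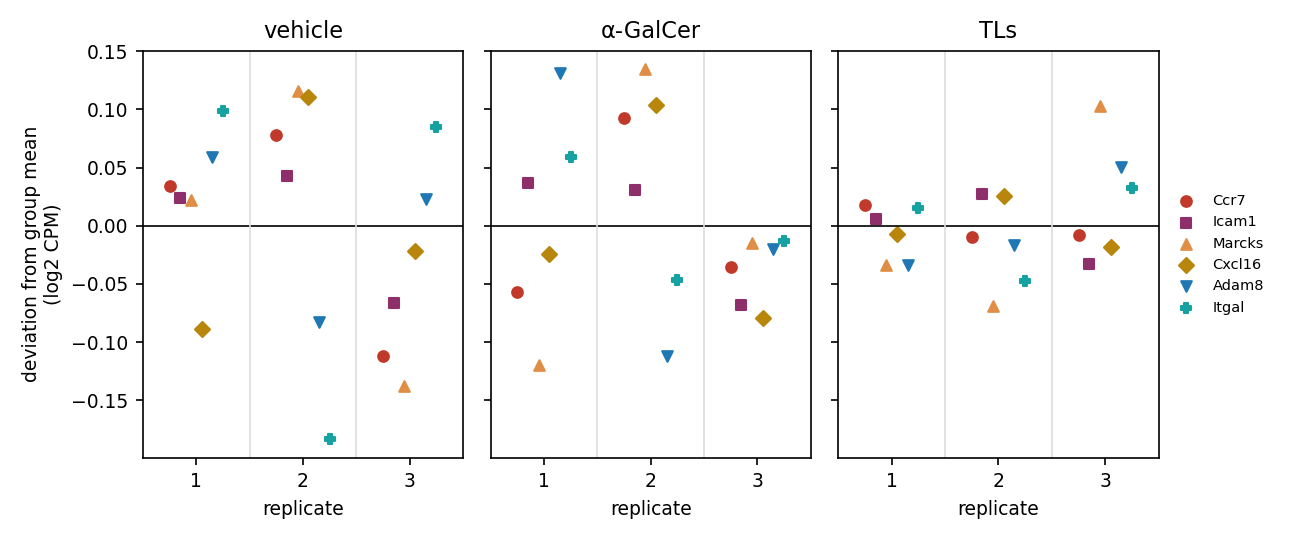
Deviation of each gene's log2 CPM from the mean of its group (vertical axis) in replicates 1 to 3 of the vehicle, α-GalCer and TL groups, with 1 symbol per gene. Replicate 2 of the vehicle and α-GalCer groups has Ccr7, Marcks and Cxcl16 above 0 and Adam8 and Itgal below it, while no TL library is farther from its mean than Marcks in replicate 3, at 0.10.

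The genes whose pattern over the 9 libraries was most like each of the 6 were sought among 1765 others that had a symbol and an average log2 CPM of at least 1. For Ccr7 they were Il1rn, the IL-1 receptor antagonist (Pearson r = 0.998), Pak1ip1 (0.998) and Marcks itself (0.996). For Icam1 they were Dram1, a lysosomal protein of autophagy (0.999), Siglec5 (0.999) and Txnrd1, a thioredoxin reductase (0.999). Marcks was most like Mob3a (0.998), Osm, the cytokine oncostatin M (0.996), and the stress-induced cytokine gene Gdf15 (0.996). Cxcl16 was most like Bcat1, which starts the breakdown of branched-chain amino acids (0.997), Riok3 (0.997) and Agpat4 (0.996). Itgal was most like Slc23a2, a vitamin C transporter (0.996), Akna (0.995) and Itgam (0.994). Adam8 had looser matches, Per1 of the circadian clock (0.978), Gtpbp2 (0.977) and Otud3 (0.974), and 37 genes with r over 0.95, against 323 to 474 for the other 5. All these values include the difference between the TL libraries and the rest, and are a description. Only genes that the study had called between TLs and the vehicle control had a symbol. Genes outside that list could not appear, and the counts of genes with high r do not describe all genes tested.

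Related genes were taken from lists of integrins, adhesion molecules, chemokine receptors, guidance cues, ADAM proteases and actin regulators. Of 136 genes listed, 58 had a symbol through the published list of called genes, which was held here only in part (1981 IDs), and 50 besides the 6 could be tested. With TLs 24 of these were higher than with the vehicle control, 19 lower and 7 not called. Counts on these lists are not independent evidence, since 76.6% of all tested genes with a symbol were called. Itgb2, Fscn1, Cxcr6, Ccl19, Ccl21, Adam10 and Adam17 had no ID here and were not analysed.

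Of the β2 integrins, both other alpha chains with an ID rose alongside Itgal. Itgam, the CD11b chain, went from 495 ± 50.0 CPM in the vehicle libraries to 765 ± 17.4 CPM after TLs, a log2 fold change of 0.63 (SE = 0.072, edgeR adjusted p = 6.01e-05). Itgax, the CD11c chain, went from 457 ± 25.4 to 666 ± 20.8 CPM, a log2 fold change of 0.54 (SE = 0.062, edgeR adjusted p = 6.38e-05). The other integrin subunits moved both ways, 2 higher and 4 lower of 6 tested (median log2 fold change −0.82). Itgb8, whose heterodimer with alpha V activates TGF-β, rose by 3.66 on the log2 scale (SE = 0.31). Its level was low in the vehicle libraries, 2.08 ± 1.04 CPM, and 26.2 ± 2.26 CPM after TLs. The value was 4.06 without vehicle replicate 1 and 3.33 without vehicle replicate 2. Itgb7 (−0.75), Itga6, the alpha chain of laminin receptors (−0.93), and Itgb5 (−2.19) fell. Itgb5 was low throughout, at 3.35 ± 0.123 CPM in the vehicle libraries and 0.733 ± 0.156 CPM after TLs. Itgb7 pairs with the chain that Itgae encodes, which binds E-cadherin.

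Genes listed under integrin activation, not all of which switch integrins on, were called in both directions. Of 9, 2 were higher, 2 lower and 5 not called (median −0.23). Most of those not called were lower with TLs at an edgeR adjusted p under 0.01. Their log2 fold changes, −0.27 to −0.21, fell short of the threshold of 0.3. The higher were Ptk2b, the kinase PYK2, with a log2 fold change of 0.84 (SE = 0.055, edgeR adjusted p = 7.84e-07), and the small GTPase gene Rap1b with 0.67 (SE = 0.061). Those called lower were Rasgrp3 (−0.64) and Rasgrp4 (−0.62), which encode exchange factors of Ras-family GTPases.

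Of 10 other adhesion molecules and selectins 4 were higher, 5 lower and 1 not called, and with Icam1 included the median was −0.14. Cd44, the hyaluronan receptor, rose from 1128 ± 20.7 to 2113 ± 46.5 CPM (log2 fold change 0.90, SE = 0.048, edgeR adjusted p = 1.68e-07). Pvr, a nectin-like adhesion molecule, rose by 0.85 (SE = 0.052). Icam2, another ligand of LFA-1, named here for that role and after its values were seen, fell from 19.7 ± 1.35 to 9.08 ± 0.700 CPM. Its log2 fold change was −1.12 (SE = 0.10, edgeR adjusted p = 9.45e-06), opposite in sign to that of Icam1.

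The chemokine receptor list held 1 tested gene besides Ccr7, and it rose. Ccrl2, an atypical receptor that binds chemerin, had a log2 fold change of 1.48 (SE = 0.11, edgeR adjusted p = 2.23e-06). Of 7 guidance cues and receptors 5 were higher and 2 lower (median 0.71). Sema4a (0.71) and Sema7a (1.22) encode semaphorins, Nrp2 (0.94) a semaphorin and VEGF-C receptor, and Gpr183 (0.78) the oxysterol receptor EBI2, which positions DCs in lymphoid tissue.

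Of the 4 ADAM protease genes that had an ID here, of 14 proteases and regulators listed, Adam8 rose and the other 3 fell. The log2 fold change was −0.79 for Adam19 (SE = 0.081), −0.45 for Adam15 (SE = 0.051) and −1.43 for Adam33 (SE = 0.26), and Rhbdf2, which carries ADAM17 to the cell surface, rose by 0.80 (SE = 0.058). Adam33 was low throughout, at 2.60 ± 0.109 CPM in the vehicle libraries and 0.971 ± 0.252 CPM after TLs. The call of Adam33 was lost without TL replicate 1 (−1.32, edgeR adjusted p = 0.011). Of 11 actin and protrusion genes besides Marcks, 7 were higher, 3 lower and 1 not called, and the median with Marcks was 0.55. Vasp, which lengthens actin filaments, rose by 0.66 (SE = 0.084) and the actin gene Actg1 by 0.53 (SE = 0.050), while the myosin gene Myo1f fell (−0.41, SE = 0.044).

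**Figure D4:**
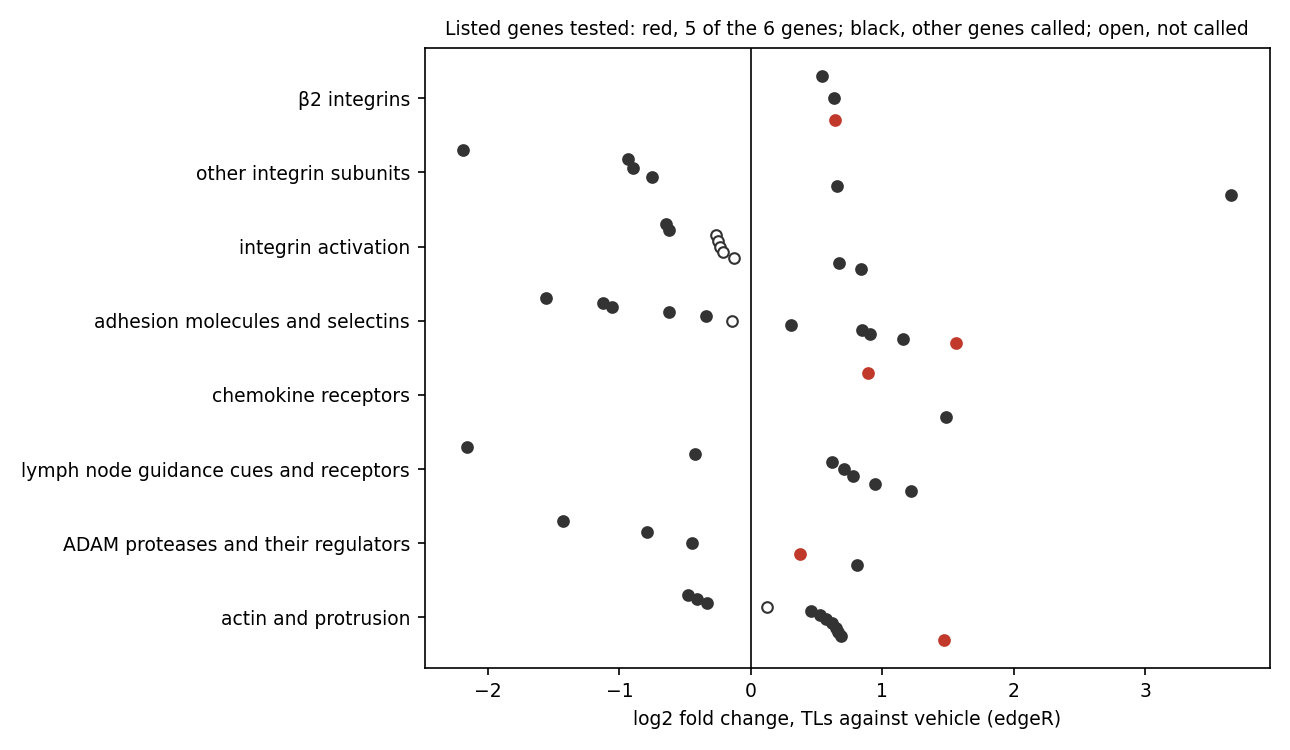
Log2 fold change of TLs against the vehicle control (horizontal axis) for each tested gene of the lists, grouped by list, with Itgal, Icam1, Ccr7, Adam8 and Marcks in red (Cxcl16 is on none of the lists), other called genes in black and genes not called as open circles. The 3 β2 integrins lie together between 0.54 and 0.64, whereas the other integrin subunits spread from −2.19 (Itgb5) to 3.66 (Itgb8).

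Markers of the cultures had an ID here only if the study had called them between TLs and the vehicle control. Their movement with TLs is thus not independent of how they were found, and 76.6% of all tested genes with a symbol were called. Of 13 DC markers 3 had an ID, Itgax, Ciita and Irf8, none of them near 0: their summed level was 676 to 797 CPM in the vehicle and α-GalCer libraries and 885 to 929 CPM with TLs. Within that sum Itgax rose with TLs while Ciita (−0.38) and Irf8 (−0.30, at the threshold) fell. Of 10 monocyte and macrophage markers 6 had an ID, and their sum was 1943 to 2063 CPM without TLs and 3426 to 3468 CPM with them. Without Cd14, left out after its values were seen, the sum of the other 5 was lower with TLs (1017 to 1038 CPM) than in the vehicle and α-GalCer libraries (1494 to 1632 CPM). Among them Cd14 (2.43 on the log2 scale) and Adgre1 (1.79) rose, while Csf1r (−0.59), Mrc1 (−1.27) and Fcgr1a (−0.68) fell. Mpo, the neutrophil marker with an ID, was at 468 to 536 CPM without TLs and 427 to 435 CPM with them, and was not called. Blnk, 1 of 7 B cell markers, fell from 7.38 to 10.4 CPM without TLs to 2.94 to 3.00 CPM with them. Markers of T and NK cells, erythroid cells and stromal cells had no ID here. In such bulk samples a change in the share of a cell type and a change in RNA per cell cannot be told apart, and the part of these markers in the rise of the 6 genes was not tested.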

How the data were processed

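The deposited table holds the raw counts that the authors made, 1 row per Ensembl gene ID. Their methods and labels name poly-T mRNA selection, a paired-end NEBNext Ultra library kit, read cleaning in fastp, alignment by HISAT2 on Rnor_6.0, and featureCounts. Tool versions, annotation release, strand and multi-mapping options are not given in the sources used here. All values were whole numbers and totals differed between libraries.

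The 9 libraries were fitted together in edgeR 4.0.16 (R 4.3.3) after filterByExpr and TMM, with the group as the only term, and Benjamini-Hochberg adjusted p-values cover all genes tested. The method was tested on simulated counts. The authors' EDASeq, iLOO and NOISeqBIO steps were not repeated; only their call thresholds were kept. The standard error printed is |log2 fold change| / √F, since edgeR itself gives none. Likeness and deviations use log2 CPM with a prior count of 2.

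Alternatives were RLE and upper quartile normalization, no filter, at least 10 counts in every library, DESeq2 1.42.0, limma-voom (limma 3.58.1), only the 2 groups compared, a replicate block and each library left out; for the named genes of the lists they were added after seeing the data. Symbols came from the ID and name columns of the study's list of called genes, and its fold changes and p-values were not used. Members and lists were chosen with earlier results of these data known. Named genes are the 6; in each list up to 4 with the smallest adjusted p against the vehicle control and every β2 integrin; and the 3 genes most like each of the 6. Others were chosen after their values were seen. Single values of some named genes are not reported here.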

Additional observations from a re-analysis of the deposited data

How the results depend on the processing

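In both TL comparisons the 6 genes kept their direction under all 17 alternatives and their call under all but 1, that of Adam8 without TL replicate 3 (0.35). For α-GalCer against its vehicle 0 of the 6 genes were called under any alternative, and only Ccr7 and Marcks changed sign, in 2 alternatives each. Over all genes, 2 were called between these groups with no filter on low counts and 2 by DESeq2, against 0. Leaving out 1 library gave 1785 to 2706 genes called for TLs against the vehicle control, 1886 to 3089 against α-GalCer, and 0 to 1 for α-GalCer against its vehicle, the 1 without vehicle replicate 2.

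Whether libraries with the same replicate number came from the same assay is not stated. Of 9 same-numbered pairs across groups, 1 had deviations correlated above 0.1 (−0.062 to 0.12). Low correlations over all genes cannot show whether an assay was shared. With the replicate block 2256 genes were called against the vehicle control, 2332 against α-GalCer and 0 for α-GalCer against its vehicle, and no call of the 6 genes changed. Icam1 then had a log2 fold change of 1.56 against the vehicle control, Marcks 1.47, Cxcl16 0.93, Ccr7 0.89, Itgal 0.64 and Adam8 0.37. Of 26 named genes of the lists, 25 kept their call under every alternative that could be fitted and Adam33 lost it under 1. A filter of 10 counts in every library leaves out genes that are nearly silent in 1 group, which touches none of the 6.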

Other observations

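3 listed genes with a symbol were under the filter on low counts and belong to no comparison above. Vcam1, the endothelial ligand of alpha 4 integrins, had 4 counts summed over the vehicle group, 2 after α-GalCer and 18 after TLs. Itga8, the alpha chain of a receptor for nephronectin, had 7, 13 and 26 counts in the same order. Ccr10, the receptor of CCL27 and CCL28, had 0 counts in the vehicle group, 14 after α-GalCer and 7 after TLs; a count of 0 allows a level of up to 0.0575 CPM there (3 counts for the whole group, counting error only).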
